A study of Mus musculus with 10 samples.

Results

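The genes described here carry the transforming growth factor beta (TGF-beta) signal in regulatory T (T_reg) cells. They were taken by name from the count tables as 10 of the 55809 gene rows: the ligand Tgfb1 and its carrier Lrrc32, the activators Furin, Itgav and Itgb8, the receptors Tgfbr1 and Tgfbr2, and the signal mediators Smad2, Smad3 and Smad7. All 10 were present, and all 10 passed the filter of a mean count of at least 10. The rule names them by their role in the pathway and uses no measured value.

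TGF-beta is made as an inactive precursor. The protease furin cuts it, the surface protein GARP (encoded by Lrrc32) holds the latent form on T_reg cells, and the integrin built from Itgav and Itgb8 releases the active ligand. The ligand binds the type II receptor Tgfbr2, which activates the type I receptor Tgfbr1. Tgfbr1 phosphorylates Smad2 and Smad3, which enter the nucleus with Smad4, while Smad7 inhibits the receptor. In T cells the pathway is known for restraining effector responses and for helping to induce Foxp3.

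Bulk RNA was sequenced from spleen and lymph node T_reg cells. The mice carry a modified Foxp3 gene: its protein bears an auxin-inducible degron (AID), and the locus also encodes a ZsGreen reporter and a Cre recombinase. In the R26-TIR1(F74G) group (6 libraries, replicates 5 to 10) the ROSA26 allele also encodes TIR1(F74G), a plant E3 ligase part that marks the fusion protein for degradation when the auxin analog 5-ph-IAA is given, with an mCherry reporter. TIR1 is expressed only after Cre, which Foxp3-expressing cells make, has removed a STOP cassette. In the R26-WT group (4 libraries, replicates 1 to 4) ROSA26 is wild type and the fusion protein is kept. Both groups carry the AID allele and both received 5-ph-IAA for 14 days, so neither holds unmodified Foxp3 or an untreated state. The labels give no age or sex and do not state whether each library is 1 mouse, so the p-values measure the spread between these libraries. The study describes 14 days of degradation for T_reg cells of neonatal and adult hemizygous males. The labels do not tie these libraries to either age. The study describes a sort on ZsGreen, with mCherry added for cells that express TIR1, but not for these libraries in particular. Where it was used, gate and genotype cannot be told apart.

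Libraries held 24158699 to 54795718 counted read pairs. The degron acts on the protein, so the Foxp3 transcript does not check the labels. It had 6816 to 11779 normalized counts (counts divided by DESeq2 size factors) in R26-WT and 6778 to 16059 in R26-TIR1(F74G). The T cell marker Cd3d had 1062 ± 125 TPM (transcript abundance scaled for length and library size; SD, n = 4) and 1026 ± 112 (SD, n = 6). All 10 T cell and T_reg markers passed the filter. Their summed level was 4176 to 4346 TPM in R26-WT and 3908 to 4095 TPM in R26-TIR1(F74G), without overlap. In DESeq2 7 of the 10 had negative values and 0 were called, and 3 had an unadjusted p under 0.05: Ctla4 at -0.31 (SE 0.13), Tnfrsf18 at -0.42 (SE 0.19) and Izumo1r at -0.30 (SE 0.15). Of all 16363 tested genes, 1122 had an unadjusted p under 0.05 in DESeq2. The lists for other cell types were partly detected, each mostly through 1 gene. The platelet list summed to 20.3 to 52.5 TPM in R26-WT and 23.8 to 67.1 TPM in R26-TIR1(F74G), led by Itgb3 at a mean of 36.0 TPM, while Pf4 and Ppbp had a count of 0 in every library. Gp1bb was also at 0, but 92.9% of its exon bases are shared with other genes, where read pairs were not counted. The myeloid list summed to 154 to 197 TPM and 150.1 to 182 TPM, led by Cst3 at 164 TPM, with 7 of its 11 genes under a mean count of 10. The B cell list summed to 42.4 to 58.6 TPM and 37.7 to 54.0 TPM, led by Cd79b at 38.6 TPM, and the stroma and endothelium list to 77.8 to 129.9 TPM and 64.3 to 145.9 TPM, led by Pecam1 at 103 TPM. The erythroid list stayed under 1 TPM. The CD8 and NK cell list summed to 78.4 to 93.9 TPM and 79.4 to 91.4 TPM, led by Cd8b1 at 62.2 TPM, with Cd8a at 0.240 TPM and Ncr1 at a count of 0 in every library. One gene of these lists was called, Eomes, a transcription factor of CD8, NK and some CD4 T cells, at 1.79 TPM in R26-WT and 5.05 TPM in R26-TIR1(F74G) (log2 fold change 1.47, SE 0.23, adjusted p 4.5e-08 in DESeq2), and its groups did not overlap. Markers of cell division also moved with the groups: 17 of 18 had positive values and 15 were called higher in R26-TIR1(F74G) by DESeq2, where 229 of all 16363 tested genes were called higher, and their summed level was 204 to 322 TPM in R26-WT and 379 to 593 TPM in R26-TIR1(F74G). The part of the T_reg markers, of Eomes and of the division markers in the results below was not tested. In bulk RNA, fewer cells with a transcript and less transcript per cell cannot be told apart.

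The promoters of the ligand and of both receptor chains are shown because these genes carry the signal from the cell surface and their counts varied together between libraries. Each is the 250 bases before a RefSeq transcript start (GRCm38.p6, given 5′ to 3′ on the strand of the gene). Capitals mark CAGAC or its reverse complement GTCTG, the short element that SMAD proteins are known to bind.
Tgfb1, chr7:25686752-25687001, plus strand: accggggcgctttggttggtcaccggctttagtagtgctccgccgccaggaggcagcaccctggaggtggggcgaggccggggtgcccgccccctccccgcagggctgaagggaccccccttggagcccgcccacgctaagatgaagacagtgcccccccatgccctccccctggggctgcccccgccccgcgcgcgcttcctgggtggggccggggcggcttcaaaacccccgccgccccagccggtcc
Tgfbr1, chr4:47352972-47353221, plus strand: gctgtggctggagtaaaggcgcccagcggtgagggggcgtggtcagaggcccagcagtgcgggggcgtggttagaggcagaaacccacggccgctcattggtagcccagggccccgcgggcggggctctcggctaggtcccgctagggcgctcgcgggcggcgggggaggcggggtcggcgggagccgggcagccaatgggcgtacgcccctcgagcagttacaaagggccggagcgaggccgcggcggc
Tgfbr2, chr9:116175364-116175613, minus strand: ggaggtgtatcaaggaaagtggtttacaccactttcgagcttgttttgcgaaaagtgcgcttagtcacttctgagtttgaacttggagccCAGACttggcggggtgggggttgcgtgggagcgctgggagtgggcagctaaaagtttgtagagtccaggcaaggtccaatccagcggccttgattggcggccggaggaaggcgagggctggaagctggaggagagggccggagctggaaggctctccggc

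These windows were rich in G and C, with 75.2% for Tgfb1, 74.8% for Tgfbr1 and 58.4% for Tgfbr2. Windows were found for 7 members, 9 in all. The SMAD element was present in 5 of the 9, belonging to Tgfbr1 (at its second start), Furin, Tgfbr2 and Itgb8, and in 42.2% of all 32851 windows. The forkhead motif TGTTTAC (or GTAAACA) was in 3.17% of all windows and in 0 of the 9. When the 50 bases after the start were included, the share was 3.65% and 1 of the 9, at the second start of Furin, held it. A match of so few letters describes the window and is not a binding site.

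Levels are compared per transcript length. Lrrc32 was the most abundant at 217 ± 80.9 TPM (SD, n = 10 libraries of both groups), followed by Tgfbr2 at 126 ± 53.7 TPM and Tgfb1 at 86.1 ± 15.8 TPM. Smad7 lay beside Tgfb1 at 85.0 ± 34.0 TPM, and these neighbours did not differ beyond their spread. Smad2 followed at 39.1 ± 2.64 TPM, then Tgfbr1 at 31.7 ± 15.9 TPM, Furin at 23.1 ± 12.2 TPM and Smad3 at 19.1 ± 10.5 TPM. The integrin chains were lowest, Itgav at 10.5 ± 4.38 TPM and Itgb8 at 1.93 ± 0.672 TPM. Lrrc32 was above Tgfbr2, Tgfbr1 above Furin, Furin above Smad3, Smad3 above Itgav and Itgav above Itgb8 in 10 of 10 libraries, as was Smad7 above Smad2. The ranges over libraries did not overlap for Smad7 and Smad2 or for Itgav and Itgb8, and overlapped for the other neighbours. Tgfbr2 was above Tgfb1, Tgfb1 above Smad7 and Smad2 above Tgfbr1 in 8 of 10. Lrrc32 ranked above 95.2% of tested genes and Itgb8 above 22.8%.

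**Figure D1:**
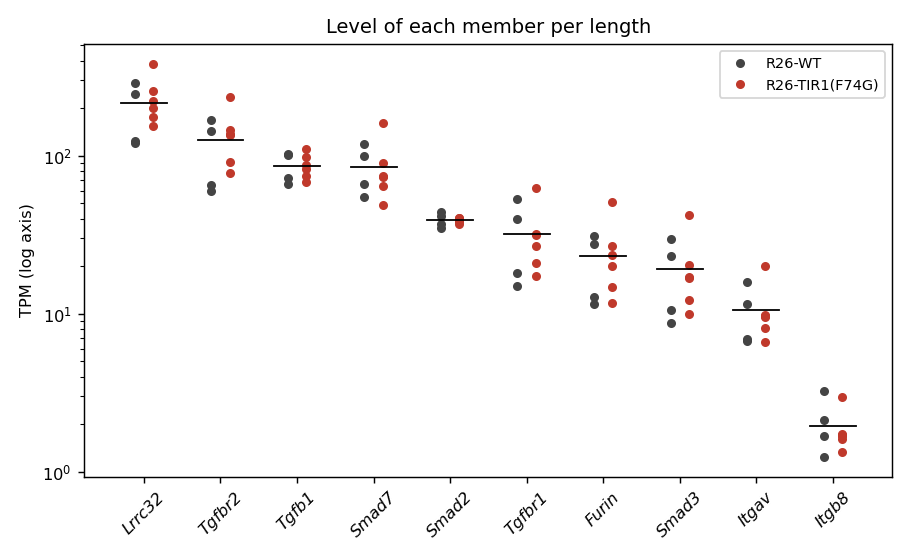
Level of each member in TPM (log axis), with 1 point per library, R26-WT in grey and R26-TIR1(F74G) in red, and a line at the mean of all 10 libraries. The order runs from Lrrc32 at a mean of 217 TPM to Itgb8 at 1.93 TPM, and the points of both groups overlap for every member.

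The first comparison asks whether 14 days of Foxp3 protein loss changed the transcripts of the pathway. None of the 10 members passed an adjusted p of 0.05 in DESeq2, and none had an unadjusted p under 0.05 in DESeq2, edgeR or limma voom. Over all tested genes 284 of 16363 (1.74%) were called. Read against that share, 0 of 10 is no result about the members. The median log2 fold change of the members was -0.01, with 5 higher and 5 lower, beside 0.00063 for all tested genes pooled. Both groups overlapped in normalized counts for all 10, and for 2.37% of tested genes they did not overlap.

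Of the ligand and its carrier, Tgfb1 (chromosome 7, 25386427 to 25404502, plus strand, GRCm39) was the steadier. Its normalized counts were 7160, 7029, 5410 and 5767 in R26-WT replicates 1 to 4, and in R26-TIR1(F74G) they ran from 5227 to 7201 with a median of 6026. The highest and lowest libraries of both groups lay at nearly the same levels. The log2 fold change was -0.03 (SE 0.14, 95% interval -0.30 to 0.24; DESeq2 adjusted p 0.99996, as for each of the 10 members). Lrrc32 (chromosome 7, 98138490 to 98151388, plus strand) had 16236, 18574, 9392 and 8861 normalized counts in R26-WT and 11041 to 23300, with a median of 14006, in R26-TIR1(F74G). R26-WT replicates 3 and 4 were lower than every R26-TIR1(F74G) library, while replicates 1 and 2 were within their range. The log2 fold change of 0.21 (SE 0.26) had an interval from -0.29 to 0.71, which leaves room for levels between 0.816 and 1.64 times those of R26-WT. Single libraries moved the value: it was 0.05 without R26-TIR1(F74G) replicate 7, 0.06 and 0.08 without R26-WT replicates 4 and 3, and 0.32 and 0.42 without R26-WT replicates 1 and 2. The study names Lrrc32 among the top genes lowered by Foxp3 degradation in resting T_reg cells of heterozygous females. The labels here name no resting subset, so the comparisons may not be alike.

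**Figure D2:**
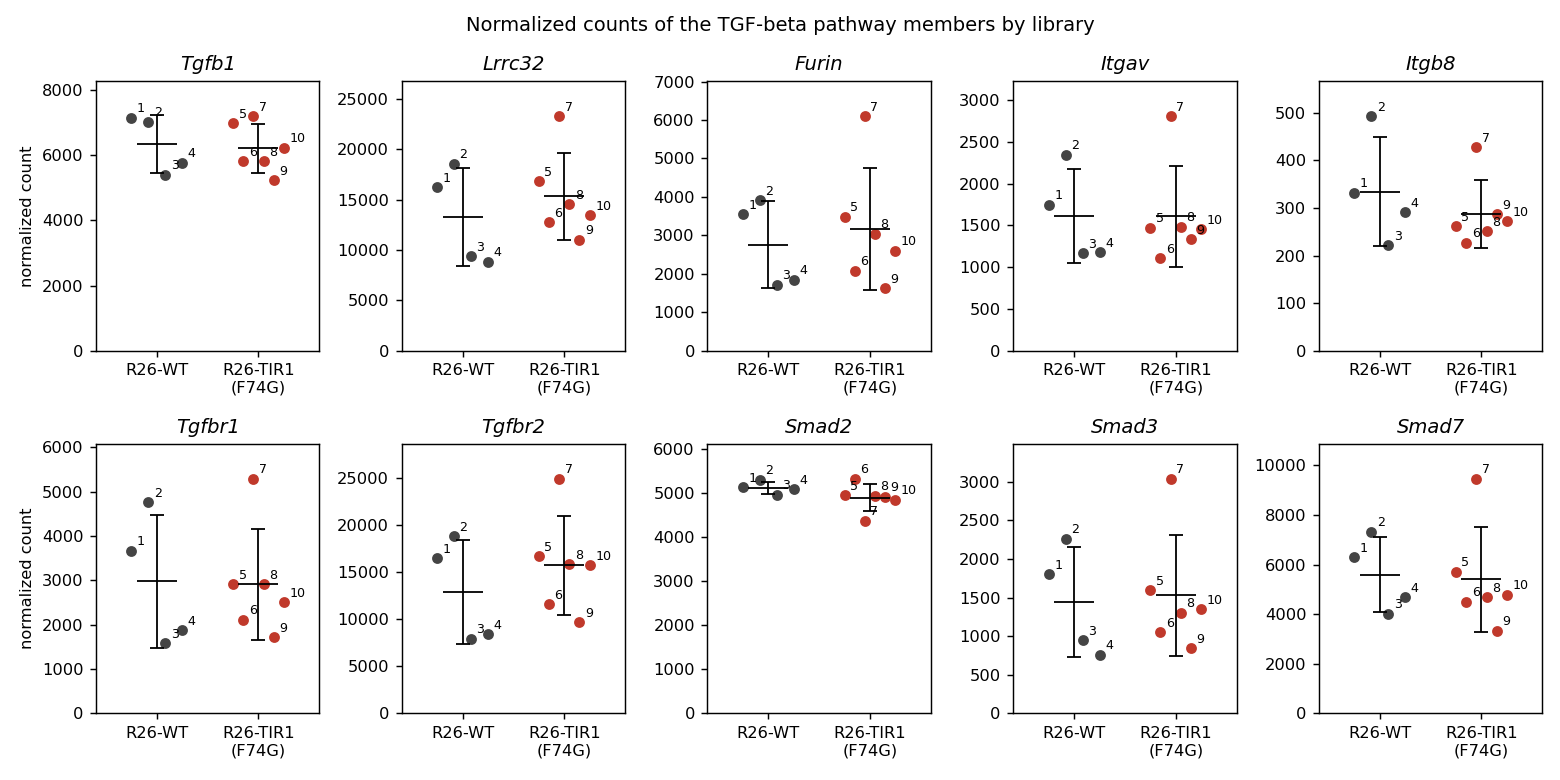
Normalized counts of the 10 members, with 1 point per library numbered by replicate, a line at the group mean and bars of 1 SD (n = 4 R26-WT, n = 6 R26-TIR1(F74G)). Replicate 7 is highest of the R26-TIR1(F74G) libraries for every member but Smad2, where at 4373 it is the lowest, and in R26-WT replicates 1 and 2 lie above 3 and 4.

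Among the activators, Furin (chromosome 7, 80038333 to 80055184, minus strand), the protease that cleaves the precursor, had 3545, 3908, 1721 and 1848 normalized counts in R26-WT. In R26-TIR1(F74G) it ranged from 1622 to 6100 with a median of 2826, a 3.76-fold span within 1 group. Its log2 fold change was 0.20 (SE 0.34), and without R26-TIR1(F74G) replicate 7 it was -0.10. Itgav (chromosome 2, 83554741 to 83637260, plus strand), the alpha chain of the integrin, had 1745, 2345, 1165 and 1177 normalized counts in R26-WT and 1107 to 2806 with a median of 1462 in R26-TIR1(F74G). The group means were 1608 in both, and the log2 fold change was 0.0010 (SE 0.27). Its beta chain Itgb8 (chromosome 12, 119121757 to 119202537, minus strand) had 332, 493, 221 and 292 normalized counts in R26-WT and 227 to 428 with a median of 267 in R26-TIR1(F74G). For this gene the log2 fold change was -0.21 (SE 0.24), and it was 0.03 without R26-WT replicate 2. Read pairs shared with an overlapping gene on the other strand were left out by the counting and touch 1.29% of the exon bases of Furin and 5.90% of those of Itgav.

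The receptor chains spread widely within both groups. Tgfbr1 (chromosome 4, 47353222 to 47414931, plus strand) had 3670, 4768, 1589 and 1871 normalized counts in R26-WT and 1721 to 5287 with a median of 2708 in R26-TIR1(F74G). Tgfbr2 (chromosome 9, 115913361 to 116004428, minus strand) had 16525, 18809, 7934 and 8408 in R26-WT and 9717 to 24931 with a median of 15801 in R26-TIR1(F74G). For both genes R26-WT replicates 1 and 2 lay among the higher R26-TIR1(F74G) libraries. Tgfbr1 had a log2 fold change of -0.03 (SE 0.34) and Tgfbr2 one of 0.29 (SE 0.29), with intervals of -0.70 to 0.63 and -0.29 to 0.86. For Tgfbr2 the value was 0.11 without R26-TIR1(F74G) replicate 7, 0.11 and 0.13 without R26-WT replicates 3 and 4, and 0.52 without R26-WT replicate 2. With 1 surrogate variable in the model, Tgfbr1 was at -0.21 (SE 0.06; DESeq2 adjusted p 0.027), the 1 call of a member in 180 fits over 18 alternatives. In the other 17 its adjusted p was 0.726 or higher. The fit with the surrogate variable called 743 of all 16363 tested genes, against 284 in the main fit.

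**Figure D3:**
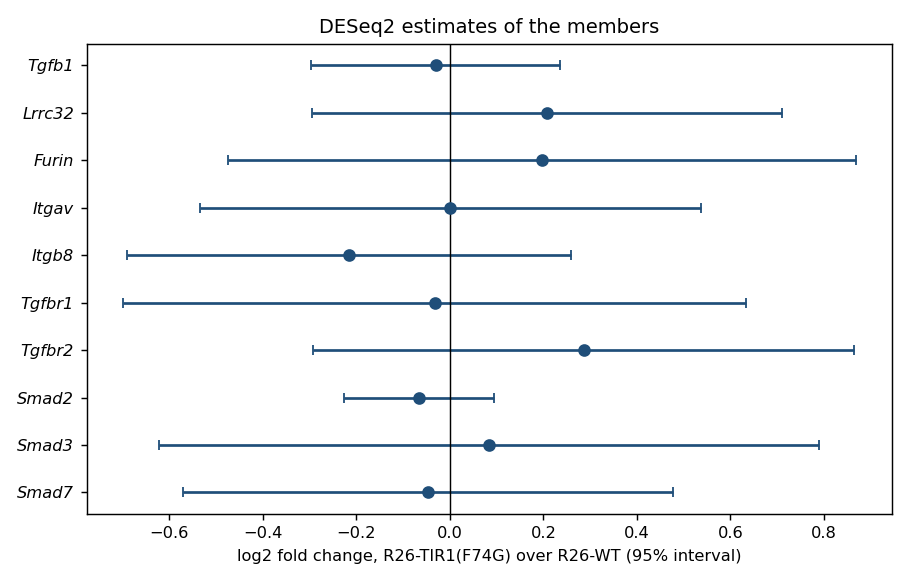
DESeq2 log2 fold change of each member, R26-TIR1(F74G) over R26-WT, with 95% intervals. All 10 intervals include 0, from the narrow one of Smad2 (-0.23 to 0.09) to the wide one of Smad3 (-0.62 to 0.79).

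Of the SMAD genes, Smad2 (chromosome 18, 76374651 to 76444034, plus strand) was the least variable member. It had 5134, 5303, 4963 and 5087 normalized counts in R26-WT and 4373 to 5325 with a median of 4931 in R26-TIR1(F74G). Its log2 fold change was -0.07 (SE 0.08), and the interval of -0.23 to 0.09 is the tightest of the 10. Smad3 (chromosome 9, 63554049 to 63665276, minus strand) had 1802, 2262, 948 and 759 normalized counts in R26-WT and 844 to 3038 with a median of 1325 in R26-TIR1(F74G), a log2 fold change of 0.08 (SE 0.36). The inhibitor Smad7 (chromosome 18, 75500600 to 75529006, plus strand) had 6308, 7336, 4019 and 4694 in R26-WT and 3337 to 9457 with a median of 4732 in R26-TIR1(F74G), a log2 fold change of -0.05 (SE 0.27). For neither gene did the direction hold when single libraries were left out.

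Ratios within a library cancel what both genes share. Tgfbr2 exceeded Tgfbr1 by 4.50, 3.94, 4.99 and 4.50 times in normalized counts in R26-WT replicates 1 to 4, and by 5.73, 5.49, 4.72, 5.44, 5.65 and 6.28 times in R26-TIR1(F74G) replicates 5 to 10. Only replicates 3 and 7 overlapped. The log2 ratio was 2.16 ± 0.14 (SD, n = 4) in R26-WT and 2.47 ± 0.13 (SD, n = 6) in R26-TIR1(F74G), 0.31 higher, with a two-sided exact permutation p of 0.0143 over 210 splits and 0.0429 adjusted over the 3 ratios tested. This call was not stable. The adjusted exact p was 0.0857 once each library's trend on transcript length was removed and 0.286 with the trend on length and GC content removed, and it was above 0.05 without any one of 8 of the 10 libraries (0.0714 to 0.0893), the exceptions being R26-WT replicate 3 and R26-TIR1(F74G) replicate 7. The difference stayed positive in all of these, from 0.25 to 0.36 in the fits without 1 library. With 1 library left out there are fewer than 210 splits, so the exact p moves in coarser steps. The log2 ratio of Tgfb1 to Lrrc32 was -0.9997 ± 0.36 (SD, n = 4) and -1.27 ± 0.23 (SD, n = 6; adjusted exact permutation p 0.286), and that of Smad3 to Smad2 was -1.97 ± 0.72 and -1.80 ± 0.71 (adjusted exact permutation p 0.729).

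**Figure D4:**
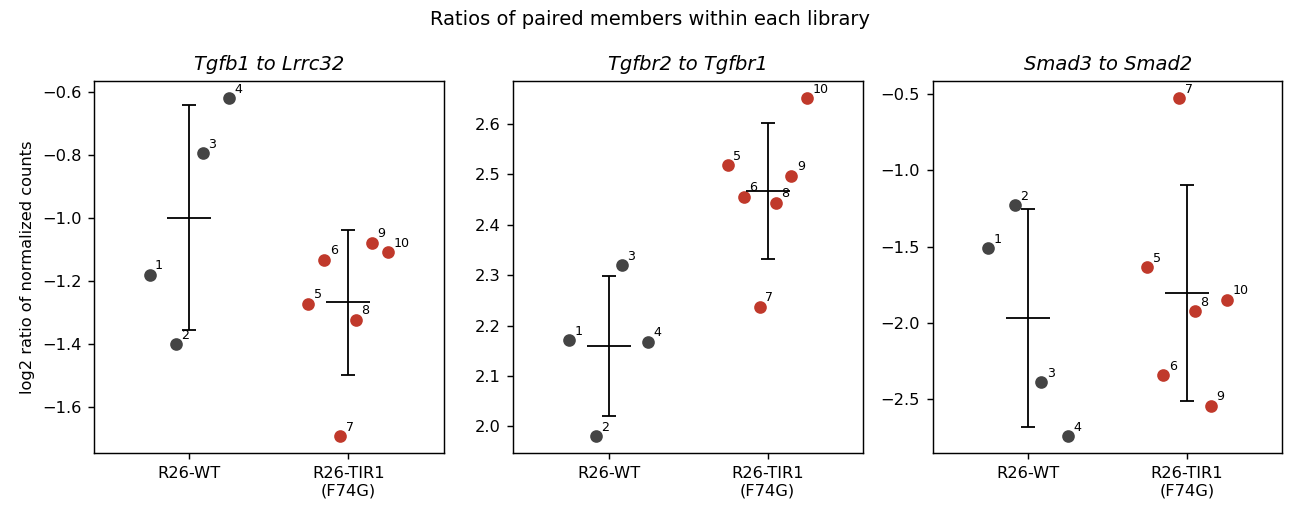
Log2 ratio of normalized counts of paired members in each library, numbered by replicate, with the group mean and 1 SD. For Tgfbr2 to Tgfbr1, 5 of the 6 R26-TIR1(F74G) libraries lie above all 4 R26-WT libraries, and replicate 7 lies below replicate 3.

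Of 59 other pathway genes, 45 were tested and 1 was called (DESeq2), against a background of 1.74%. Their median log2 fold change was 0.06, with 30 higher and 15 lower, beside 8202 higher and 8161 lower of all tested genes. These genes share their libraries. The called gene was Tgfb3, another TGF-beta ligand, at a very low level: 13.0 to 22.3 normalized counts in R26-WT and 17.9 to 54.1 in R26-TIR1(F74G). R26-TIR1(F74G) replicate 5 had 17.9, within the R26-WT range. By DESeq2 it was 1.14 higher on the log2 scale (SE 0.34, adjusted p 0.0475). It was not called by edgeR (adjusted p 0.230) or limma voom (0.567), nor in 9 of the 10 fits without 1 library (adjusted p 0.0694 to 0.279, and 0.00242 without replicate 5). The size of the difference moved less, at 1.13 with edgeR, 0.90 with limma voom and 1.01 to 1.29 without 1 library. Other genes share 12.4% of its exon bases.

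None of the other tested pathway genes was called. The remaining latency and ligand genes were mostly low, but Nrros, which also carries latent TGF-beta, had a mean of 148 TPM and a log2 fold change of 0.12 (SE 0.11). Of the other activators, 5 of 11 were tested and all 5 had positive values, from 0.06 to 1.48 on the log2 scale. Only 1 of them had an unadjusted p under 0.05 in DESeq2. Itgb1, an integrin beta chain that pairs with Itgav among others, had 200.0 TPM and a value of 0.66 (SE 0.28) on the log2 scale, with an adjusted p of 0.448 in DESeq2, and Pcsk7, a relative of furin, was at 37.3 TPM and 0.06 (SE 0.23). All 9 other receptors were tested, of which Tgfbr3, a co-receptor, had the highest level at 17.6 TPM, with 0.64 (SE 0.49), and Acvrl1 had 13.3 TPM, with 0.25 (SE 0.15). Smad4, the common partner of Smad2 and Smad3, was at 182 TPM with 0.03 (SE 0.12), and Smad1 at 32.5 TPM with -0.0035 (SE 0.08). Among 17 regulators, Fkbp1a, which binds the type I receptor, was at 246 TPM with -0.07 (SE 0.17), and Strap at 174 TPM with 0.05 (SE 0.07). Of the 10 response genes 7 were tested, and Id3, an inhibitor of E proteins, had 403 TPM and -0.62 (SE 0.23; DESeq2 adjusted p 0.212), and Nedd9, an adaptor protein, had 103 TPM and 0.09 (SE 0.24).

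Most members varied together across libraries. After subtraction of the group means, the correlation of log2 normalized counts between 2 members over the 10 libraries was 0.68 to 0.99 (median 0.93) in the 36 pairs without Smad2, and -0.52 to -0.24 in the 9 pairs with it. These points share their libraries and size factors. The spread within groups was wide for most: the SD of log2 normalized counts was above the 90th percentile of 0.451 for 6 of the 10 members, taken over the 9488 tested genes whose mean is at least that of Itgb8. It was 0.68 for Smad3, 0.64 for Furin and Tgfbr1, and 0.08 for Smad2, where the median gene had 0.227.

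The members were next set against a measure of transcript length in each library. An index of long to short transcripts was taken per library from tested genes in no list: the median log2 deviation from the gene's mean in the longest genes (upper quartile, at least 5803 bases of exons) minus that in the shortest (lower quartile, at most 1719). It was 0.19, 0.41, -0.53 and -0.40 in R26-WT and 0.14, -0.27, 0.58, 0.07, -0.32 and 0.03 in R26-TIR1(F74G), and the group means of -0.08 ± 0.45 (SD, n = 4) and 0.04 ± 0.32 (SD, n = 6) lay closer together than the libraries within a group (exact permutation p 0.638). All 10 members have longer exons than the median tested gene of 3419 bases, 4521 to 11060. The index was defined after the values were seen.

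Over the 10 libraries the log2 normalized counts of Tgfbr2 followed the index with Pearson's r of 0.98 (adjusted permutation p 5e-05 over the 10 members) and Spearman's rho of 0.99 (adjusted permutation p 0.0001), and those of Lrrc32 with 0.97 and 0.98 (the same adjusted p-values). For Tgfb1 r was 0.88 (adjusted permutation p 0.0017), for Itgb8 0.77 (0.0085), and for Smad2 -0.37 (0.303). Spearman's rho was 0.94 for Tgfb1 (adjusted permutation p 0.0004) and 0.88 to 0.98 for Furin, Itgav, Tgfbr1, Smad3 and Smad7. For Itgb8 rho was 0.65 and did not pass (adjusted permutation p 0.054), and for Smad2 it was -0.12 (0.760). Without the 2 libraries farthest from the median, R26-TIR1(F74G) replicate 7 and R26-WT replicate 3, r was 0.61 for Itgb8, 0.13 for Smad2 and 0.83 to 0.98 for the other 8. Within the 6 R26-TIR1(F74G) libraries it was 0.77 to 0.99 for the 9 members other than Smad2, of which Itgb8 (0.77) did not pass the test (exact permutation p 0.0833, adjusted 0.0833). For Smad2 it was -0.85 there, an inverse relation that did not pass either (exact permutation p 0.0639, adjusted 0.071). Many genes share this: r was at least 0.8 for 8 of the 10 members, for 19.1% of all tested genes and for 41.0% of those with exons at least as long as the shortest member. The cut of 0.8 was set after the values were seen. When each library's trend on length was removed, the SD within groups was lower for 9 members, by unequal amounts. It went from 0.68 to 0.55 for Smad3, from 0.46 to 0.39 for Smad7, from 0.45 to 0.35 for Lrrc32 and from 0.64 to 0.47 for Tgfbr1. It went from 0.64 to 0.44 for Furin, from 0.54 to 0.34 for Tgfbr2, from 0.47 to 0.25 for Itgav, from 0.39 to 0.22 for Itgb8 and from 0.19 to 0.09 for Tgfb1. For Smad2 it rose from 0.08 to 0.25.

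**Figure D5:**
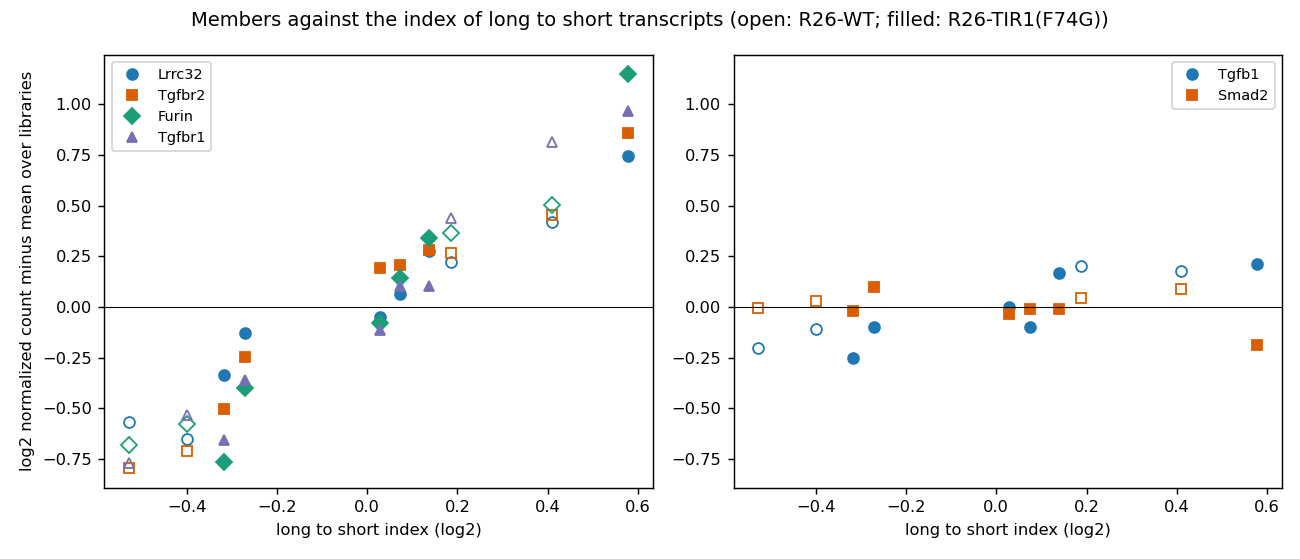
Log2 normalized count of 6 members, relative to each gene's mean, against the index of long to short transcripts in each library (open, R26-WT; filled, R26-TIR1(F74G)). Lrrc32, Tgfbr2, Furin and Tgfbr1 rise with the index on the left, and on the right Tgfb1 rises less and Smad2 does not.

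The gene most like each member was sought by Pearson's r of log2 normalized counts over the 10 libraries, which share depth and size factors. For Tgfbr2 the closest was Ahcyl1 (0.997), for Tgfbr1 Agps (0.997), for Furin Morc2a (0.996), for Lrrc32 Top3a (0.993) and for Itgav Ssh2 (0.989). Smad2 was closest to Wdcp (0.970). None of the 3 closest genes of any member was another member. With 16363 tested genes to draw from, this is no result about the members. Pairs of members without Smad2 had a median correlation of 0.93 after subtraction of the group means.

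The members were also set against the mean of 20 activated T_reg genes. Of these, Tigit and Ccr2 were called higher and Tnfrsf9 lower in R26-TIR1(F74G) by DESeq2, where 1.74% of all tested genes were called. Of 10 resting T cell genes, Tcf7 at 0.43 (SE 0.12) and Bcl2 at 0.37 (SE 0.11) were called higher and 0 lower. With the activated list, Pearson's r ran from -0.24 for Smad2 to 0.16 for Itgav, with adjusted permutation p of 0.966 for all 10 members. Spearman's rho ran from -0.56 to 0.47 (lowest adjusted permutation p 0.680). Within the 6 R26-TIR1(F74G) libraries r ran from -0.68 to 0.16 (lowest adjusted exact permutation p 0.532). Without R26-WT replicate 3 and R26-TIR1(F74G) replicate 9, which were farthest from the median of the list, r for Tgfbr2 was 0.66 in place of 0.14. Without these libraries r was also 0.45 to 0.53 for Lrrc32, Furin, Itgav, Tgfbr1 and Smad3. It was 0.11 to 0.22 for Tgfb1, Itgb8 and Smad7, and -0.42 for Smad2.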

How the data were processed

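The members, gene lists and alternatives were chosen with earlier results of these data known. The deposited tables, 1 per library, hold raw read-pair counts for each gene name, with no normalization. Their headers name featureCounts 2.1.1 and the annotation of GENCODE M30 (GRCm39), with primary pairs, both mates mapped and mapping quality of at least 30, and no strand option was given. Alignment is named as STAR in the study's methods and as Bowtie2 in the submitters' processing notes. The 16363 genes whose mean count reached 10 were tested in R 4.3.3 with DESeq2 1.42.0 (two-sided Wald test, genotype only, Benjamini-Hochberg adjusted p under 0.05). Alternatives were edgeR 4.0.16 quasi-likelihood, limma 3.58.1 voom with quality weights, TMM factors, count minimums of 1 (sum over libraries) and 50 (mean), removal of trends on length or on length and GC content (span 0.3), 1 surrogate variable (sva 3.50.0) and each library left out. TPM was computed from counts and exon length. Log2 values used a pseudocount of 1, ratios excepted. Permutation tests were two-sided, exact or with 100000 resamples. Promoters came from RefSeq. Named genes are the members, other listed pathway genes that were called, and the 2 most abundant of each list. Libraries of a group differed beyond counting error in all 21 pairs (chi-square per degree of freedom at least 9.45). On simulated counts for this comparison of 16363 genes, DESeq2 recovered 24 of 100 genes changed by 0.5 on the log2 scale, 36 of 50 changed by 1 and 48 of 50 changed by 2, and 38 of its 146 calls were false. For edgeR these were 5, 27 and 44, with 3 of 79 calls false. The simulated counts were drawn for each gene independently, without the trend on length that genes of a library share in the data. Recovery in the data may differ. PCR copies are not independent molecules, so counts understate technical error.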

Additional observations from a re-analysis of the deposited data

Results flagged for a closer look

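In 4 members R26-TIR1(F74G) replicate 7 stood apart from the other 5 libraries of its group. Its normalized count was 2806 for Itgav, 428 for Itgb8, 5287 for Tgfbr1 and 3038 for Smad3, and the gap to the next library was 0.779, 0.703, 0.665 and 0.659 of the group's range, above Dixon's 95% critical value for 6 samples. Of 30 groups of values examined, chance would flag about 1.5. The same library has the highest index of long to short transcripts, 0.58, and the values are not independent of each other. The cause was not tested.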

How the results depend on the processing

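No paired analysis was possible because replicate numbers 1 to 4 were used in R26-WT and 5 to 10 in R26-TIR1(F74G). Over all genes, calls numbered 61 with edgeR, 80 with limma voom and 743 with 1 surrogate variable, against 284, and 187 to 346 without 1 library (187 without R26-WT replicate 4). Removal of the length trend gave 373 calls over all genes, and removal of the length and GC trend gave 359. TMM factors gave 278, no filter beyond 1 count 259, and a mean count of at least 50 gave 233. Members called numbered 1 with 1 surrogate variable (Tgfbr1, -0.21) and 0 in the other alternatives. Other pathway genes called, against 1, numbered 0 with edgeR, limma voom, TMM factors, no filter beyond 1 count and a mean count of at least 50 (where Tgfb3 was not tested), 2 with the length trend removed (Tgfb3 and Smurf2), 2 with the length and GC trend removed (Id3 and Smurf2), 5 with 1 surrogate variable (Tgfb3, Smurf2, Id3, Wwp1 and Skil), and 0 to 2 without 1 library (2, Id3 and Smurf2, without R26-WT replicate 2). Directions of members turned in 30 of 180 fits. Itgav was at -0.0025 with edgeR, -0.0028 with TMM factors, -0.0528 with the length trend removed, -0.0743 with length and GC removed and -0.16 with 1 surrogate variable. With limma voom Tgfb1 was at 0.00026 and Tgfbr1 at 0.12. With 1 surrogate variable Furin was at -0.0686 and Smad3 at -0.15, and with length and GC removed Smad3 was at -0.00026. Without 1 library, values ran from -0.0977 to 0.0338 for Tgfb1, 0.05 to 0.42 for Lrrc32, -0.10 to 0.41 for Furin, -0.23 to 0.24 for Itgav, -0.368 to 0.0336 for Itgb8, -0.29 to 0.29 for Tgfbr1, 0.11 to 0.52 for Tgfbr2, -0.09 to -0.04 for Smad2, -0.23 to 0.39 for Smad3 and -0.28 to 0.11 for Smad7. The log2 ratio difference of Tgfbr2 to Tgfbr1 was 0.30 with the length trend removed, 0.28 with length and GC removed and 0.25 to 0.36 without 1 library, that of Smad3 to Smad2 was -0.0948 to 0.411 without 1 library, and that of Tgfb1 to Lrrc32 -0.40 to -0.14. The correlation of Smad3 with the activated T_reg list was 0.0247 with the length trend removed, against -0.0164. The place of 6 members in the order of levels changed in CPM, which is not divided by length. Causes were not tested. Of the members Itgb8 had the lowest depth, at least 142 read pairs per library, and Tgfb3 had 16 to 50. How far counting error and the spread between libraries each set the width of the intervals was not tested.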
